A study of Homo sapiens with 3 samples.

Results

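The genes described here make up the folding, translocation and degradation apparatus of the endoplasmic reticulum (ER), the compartment where secreted and membrane proteins are made. They were a list of 48 genes, matched by gene symbol to the probe sets of the array. A probe set is a group of short probes whose signals are summarised into 1 value. Of the 48 genes, 47 had at least 1 probe set that the platform annotation gives to that gene alone, 165 probe sets in all, out of 18132 genes so covered. SEC61G had no such probe set in the annotation used here. Of the 47, 46 lay at or above the expression floor on all 3 arrays by their brightest probe set. The floor was a log2 signal of 5.94 (the median of all values). None of these gene values was thus kept through a high signal on 1 array. Single probe sets of a gene counted as above the floor where any of the 3 arrays reached it, so some were kept through a high signal on part of the arrays. ERN1 lay below the floor on all 3. The list holds 14 chaperones and their cofactors, 7 stress sensors and regulators, 15 genes of the translocon and signal peptidase, 10 of degradation and 2 of vesicle export.

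The cells were KYSE150, a human cell line from a squamous carcinoma of the esophagus. In 1 group they were transfected to overexpress wild-type LOXL2, a secreted amine oxidase that cross-links collagen and elastin. In another they overexpressed LOXL2 Δe13, the splice form named for exon 13, and the control group carried an empty vector. Each group was 1 array, so no test, error or p-value between groups is possible, and higher or lower describes these 3 arrays alone. Whether the transfected cells were pools or clones, and how long they expressed the gene, the sources used here do not say.

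When unfolded proteins build up in the ER, 3 sensors in its membrane respond. IRE1 (gene ERN1) splices the messenger RNA of the transcription factor XBP1, ATF6 is cut to release a transcription factor, and PERK (gene EIF2AK3) slows translation. Their targets include the chaperones of the ER lumen, the channel that takes up new proteins, and the machinery that draws misfolded proteins back into the cytosol for the proteasome. Much of this control works through a promoter element, the ER stress element or ERSE, bound by NF-Y and ATF6.

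Promoter sequences are shown for 7 of the 10 members that carry that element or a related form of it, chosen with their values known. They show what these carriers have in common outside the expression values. Most of the list was not found to carry either form. Windows ran from 250 bases before to 50 after each gene's start, from RefSeq on GRCh38.p14, and 44 of the 48 members had at least 1. The ERSE was searched on both strands as CCAAT, any 9 bases, then CCACG, and another form, ERSE-II, as ATTGG, any base, then CCACG. Capitals mark those letters. On the opposite strand they read CGTGG and ATTGG for the ERSE, and CGTGG and CCAAT for ERSE-II.
HSPA5, chr9:125241381-125241419, minus strand: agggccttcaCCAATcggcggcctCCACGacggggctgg
HSP90B1, chr12:103930206-103930349, plus strand: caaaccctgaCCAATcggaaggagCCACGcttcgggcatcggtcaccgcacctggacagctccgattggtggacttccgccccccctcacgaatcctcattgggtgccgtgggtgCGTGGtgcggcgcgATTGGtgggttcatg
CRELD2, chr22:49918544-49918582, plus strand: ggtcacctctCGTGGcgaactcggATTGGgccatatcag
XBP1, chr22:28800593-28800631, minus strand: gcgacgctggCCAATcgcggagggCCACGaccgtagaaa
HERPUD1, chr16:56932015-56932045, plus strand: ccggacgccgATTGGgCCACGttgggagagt
HYOU1, chr11:119057264-119057400, minus strand: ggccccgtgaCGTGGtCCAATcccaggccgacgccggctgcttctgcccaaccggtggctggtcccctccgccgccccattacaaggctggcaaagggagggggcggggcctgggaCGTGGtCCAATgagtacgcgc
SDF2L1, chr22:21642104-21642134, plus strand: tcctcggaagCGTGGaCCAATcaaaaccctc

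The match in HSPA5 began 66 bases upstream of the start, and that in XBP1 52 bases upstream. HSP90B1 held 2 copies of the ERSE, 194 and 89 bases upstream, and HYOU1 held 2 copies of ERSE-II, 185 and 79 bases upstream. In all, 7 members held the ERSE (CALR, CANX and SERP1 besides those printed) and 3 held ERSE-II. These are 15.9% and 6.82% of the 44 members with a window. Of all 27305 genes with a window, 25 (0.0916%) held the ERSE and 19 (0.0696%) held ERSE-II. The core of the unfolded protein response element, TGACGTGG on either strand, was in 5 members (DNAJC10, HYOU1, SEC62, SSR3 and SSR4), 11.4% against 0.927% of all genes. In HYOU1 the TGACGTGG overlapped the upstream ERSE-II. The core of the C/EBP-ATF element, TTGCATCA, was in HERPUD1 alone among the members, 2.27% against 1.08%. A match is a run of letters and not a measured binding site. The ERSE and ERSE-II were searched as elements already known for controlling genes of this kind. A high share among the members thus describes the list and is not an independent result.

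The overexpressed gene was checked first. On LOXL2 probe set 11718833_a_at the log2 signal was 5.06 in the empty vector, 10.22 in the wild-type and 10.77 in the Δe13 array, high on both arrays labelled as overexpressing LOXL2, and 11718834_at gave 5.38, 8.07 and 7.94. On 11751288_a_at it was 7.46, 14.05 and 7.41 in the same order, high in the wild-type array alone. On 11718832_a_at it was 8.81, 8.32 and 8.73, not higher on either LOXL2 array. Background probe sets rich in G and C had medians of 6.17, 5.97 and 6.11 in that order. Their median difference from the vector was -0.21 on the wild-type array and -0.06 on the Δe13 array. For background probe sets poor in G and C it was 0.009 and 0.002. The signal of the 3′ minus the 5′ probe set of ACTB, a measure of RNA integrity, was 1.26, 1.46 and 1.38. For GAPDH the same measure was -0.01, 0.00 and -0.03. The part of background or RNA integrity in the results below was not tested. Of 7 squamous epithelial markers 4 were measured, all above the floor. Their summed log2 signals were 42.9, 42.2 and 42.1, and within the list KRT14 was lower with both LOXL2 forms, at 7.76, 7.08 and 7.30, past 1.5-fold with the wild type. The part of this in the results was not tested. Of fibroblast, leukocyte and endothelial markers, 1 of 6, 1 of 4 and 1 of 3 measured genes reached the floor on any array (PDGFRB, CD68 and PECAM1). The defining leukocyte gene PTPRC and the collagen genes COL1A1, COL1A2 and COL3A1 stayed below it on all 3.

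Chaperones of the ER lumen were higher in both LOXL2 arrays than in the vector array, and more so than the rest of the list. With Δe13, 13 of the 14 were higher, and 4 of them were at least 1.5-fold higher; the median log2 difference of the group was 0.45. With the wild type, 13 of the 14 were higher, the median was 0.48, and 5 were at least 1.5-fold higher. Among all genes tested, 0.359% passed 1.5-fold upward with Δe13 and 2.02% with the wild type, and the median differences were -0.01 and 0.00. Genes higher at all made up 48.2% with Δe13 and 49.9% with the wild type.

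HSPA5, the main HSP70 chaperone of the ER, also known as BiP, had log2 signals of 12.28 in the vector, 13.22 in the wild-type and 13.31 in the Δe13 array. On this probe set both LOXL2 arrays stood well above the vector and close to each other. The difference was 1.02 for Δe13 (2.03-fold, position 5 from the top of 10878 genes) and 0.93 for the wild type (1.91-fold, position 29 of 10881). That probe set, 11758169_s_at, represents the gene because its mean signal was the highest, and its differences were the smallest of the 6 HSPA5 probe sets. Over all 6 the mean difference was 1.54 ± 0.34 (SD, n = 6 probe sets) for Δe13 and 1.18 ± 0.24 for the wild type. The largest was on 11725931_at, at 7.04 in the vector, 8.68 in the wild-type and 9.11 in the Δe13 array, which is 1.64 above the vector for the wild type and 2.08 for Δe13. Probe sets of a gene share the RNA of 1 culture, so their SD measures probe sets and not cultures.

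The J-domain proteins, which pass unfolded clients to HSPA5 and stimulate its ATPase, were split. DNAJB11 had signals of 9.71 in the vector, 10.50 in the wild-type and 10.46 in the Δe13 array on its single probe set. It was 1.73-fold and 1.68-fold higher than the vector, with the LOXL2 arrays 0.04 apart. DNAJC3, also called p58IPK, had 7.30, 8.02 and 7.90, differences of 0.72 for the wild type and 0.60 for Δe13. DNAJB9, which acts on IRE1 and in degradation, had 8.31, 8.94 and 8.75. It passed 1.5-fold with the wild type (0.62) and not with Δe13 (0.43), on probe set 11757735_s_at. On its other probe set above the floor the order of the LOXL2 arrays was turned, with 0.44 for the wild type and 0.53 for Δe13. Which LOXL2 array was higher thus differed between its probe sets, and with loess the wild-type difference was 0.58, just short of 1.5-fold. DNAJC10, a disulfide reductase that works with HSPA5, stood apart from these with 9.27, 9.44 and 9.31, differences of 0.17 and 0.04.

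HYOU1, the large HSP70-like protein that exchanges nucleotide on HSPA5, had 8.81 in the vector, 9.40 in the wild-type and 9.51 in the Δe13 array. Its differences were 0.70 for Δe13 (1.63-fold) and 0.59 for the wild type, the latter just past 1.5-fold. Its probe sets spread widely. Over the 6 above the floor the Δe13 difference ran from 0.13 to 0.84 and that of the wild type from -0.04 to 0.72. Among these HYOU1 probe sets, 11716005_a_at reached the floor on the LOXL2 arrays alone. With the median signal of all its probe sets in place of the brightest, the differences were 0.24 and -0.04, and the call was lost in both comparisons. The wild-type call was also lost with quantile normalization and with loess, at 0.55 in each. SIL1, the other nucleotide exchange factor, had signals of 8.26, 8.20 and 8.25. Its differences from the vector, -0.06 for the wild type and -0.01 for Δe13, were the lowest among the chaperones.

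HSP90B1, the HSP90 of the ER known as GRP94, was 12.90 in the vector, 13.18 in the wild-type and 13.34 in the Δe13 array. The Δe13 array was the highest on all 7 of its probe sets, with a mean difference from the vector of 0.61 ± 0.20 (SD, n = 7 probe sets) against 0.38 ± 0.11 for the wild type. MANF, a small secreted factor that binds HSPA5, was 10.80, 11.25 and 11.34, and CRELD2, another small ER protein, was 8.78, 9.29 and 9.23, or 0.21 (wild type) and 0.27 (Δe13) above the vector with the median over its probe sets. SDF2L1, a partner of DNAJB11, was 9.50, 10.04 and 9.98. MANF, CRELD2 and SDF2L1 lay above the vector in both LOXL2 arrays by less than 1.5-fold, as did HSP90B1 on its brightest probe set, while 3 of its 7 probe sets passed 1.5-fold with Δe13.

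The lectin chaperones hold glycoproteins while they fold. CANX, the membrane-bound one, was 12.70 in the vector, 13.07 in the wild-type and 13.06 in the Δe13 array. Its 9 probe sets above the floor were all higher in both LOXL2 arrays, with mean differences of 0.37 ± 0.13 for the wild type and 0.38 ± 0.10 for Δe13 (SD, n = 9 probe sets). CALR, its soluble relative, had a dim signal, 6.40, 6.47 and 6.65, within 1 log2 unit of the floor, and differed by 0.07 and 0.25. Its other probe set gave -0.10 for the wild type and 0.08 for Δe13. UGGT1, which marks misfolded glycoproteins for another round with these lectins, differed by 0.20 for the wild type and 0.15 for Δe13.

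**Figure D1:**
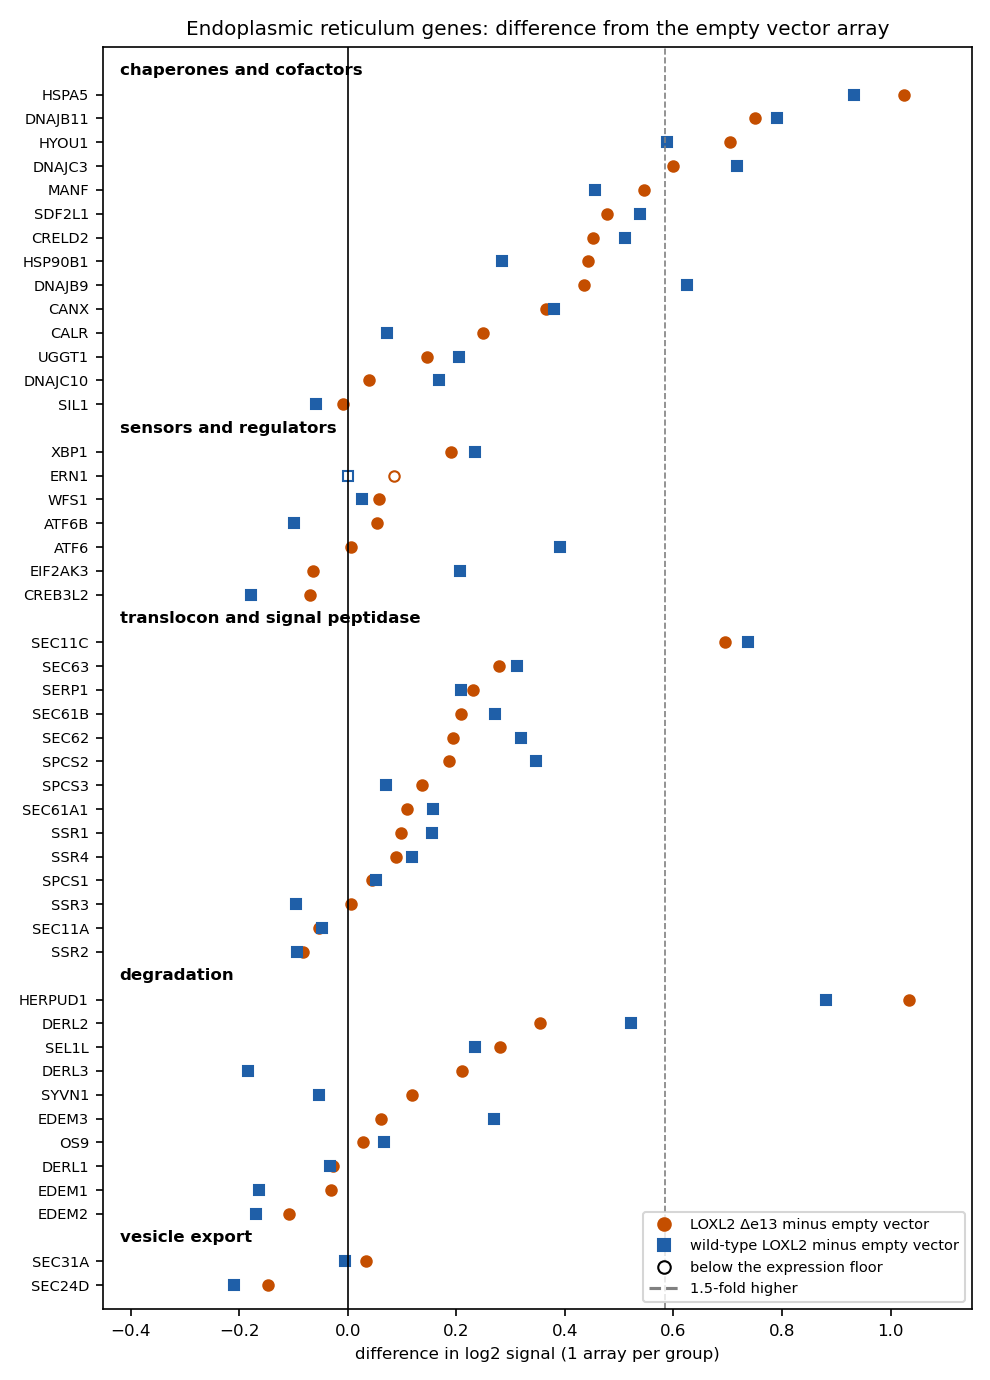
Difference in log2 signal from the empty vector array for 47 genes, grouped by function, with circles for LOXL2 Δe13 and squares for wild-type LOXL2, 1 array each; open symbols lie below the expression floor and the dashed line is 1.5-fold. HSPA5 and HERPUD1 stand furthest to the right, and the sensors lie within 0.39 of 0.

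**Figure D2:**
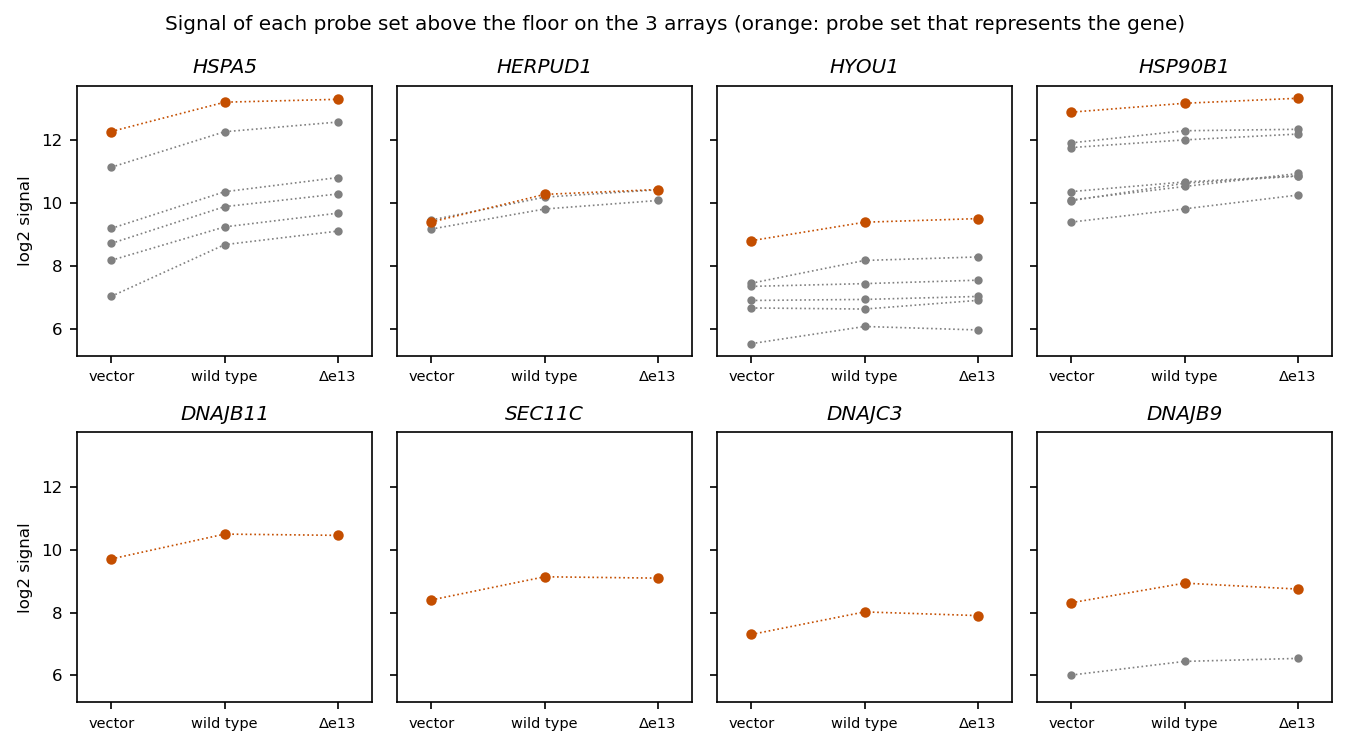
Log2 signal of each probe set above the floor on the 3 arrays for 8 genes; the orange probe set represents the gene and dotted lines only join the values of 1 probe set. All 6 HSPA5 and all 3 HERPUD1 probe sets are lowest in the vector array, while those of HYOU1 differ in how far they lie above it.

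Of the 7 sensors and regulators, 6 were above the floor, and 0 of 6 were 1.5-fold higher or lower than the vector in either comparison. With 0.359% and 2.02% of all genes higher by that much and 0.303% and 0.919% lower, a list of this size says little. Their median difference was 0.03 for Δe13 and 0.12 for the wild type. XBP1 was 8.85 in the vector, 9.08 in the wild-type and 9.04 in the Δe13 array, on 1 probe set; whether it tells spliced from unspliced RNA was not examined. ATF6 was 7.61, 8.0 and 7.62, so the wild-type array stood 0.39 above the vector and the Δe13 array 0.01. EIF2AK3 was 8.19, 8.39 and 8.12. With the median over probe sets the wild-type difference was 0.21 for ATF6 and 0.05 for EIF2AK3. ERN1 had signals of 4.63, 4.63 and 4.71, below the floor. ATF6B, the ATF6 paralog, was 6.94, 6.84 and 6.99. Its other probe set above the floor gave 6.74, 6.34 and 6.43, differences of -0.40 for the wild type and -0.32 for Δe13. CREB3L2, an ER-bound factor cut like ATF6 and known for driving secretory capacity, had signals of 10.02, 9.85 and 9.95. By the brightest probe set of each gene, its differences from the vector were the lowest among the sensors (-0.18 for the wild type and -0.07 for Δe13). It was lower in both LOXL2 arrays on all 3 of its probe sets above the floor. On 11759648_at and 11759649_x_at the vector and Δe13 arrays reached the floor and the wild-type array did not. WFS1, an ER membrane glycoprotein that restrains ATF6, lay within 0.06 of the vector in both. Activity of these sensors rests on splicing, cleavage and phosphorylation, which the array does not measure.

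Of the translocon and signal peptidase genes, 12 of the 14 above the floor were higher with Δe13 and 11 of 14 with the wild type, against 48.2% and 49.9% of all genes. The median differences were small, 0.12 and 0.16. The exception in size was SEC11C, a catalytic subunit of signal peptidase, at 8.40 in the vector, 9.14 in the wild-type and 9.10 in the Δe13 array. It was 1.67-fold higher with the wild type and 1.62-fold with Δe13, on 1 probe set above the floor. Its paralog SEC11A, the alternative catalytic subunit, was 11.58, 11.53 and 11.53, level with the vector. The accessory subunits SPCS1, SPCS2 and SPCS3 differed by 0.05, 0.35 and 0.07 for the wild type and by 0.04, 0.19 and 0.14 for Δe13. With the median over probe sets SPCS3 differed by 0.24 for the wild type. SPCS2 has 4 pseudogenes named after it in RefSeq, and 7 members have at least 1, among them HSPA5, XBP1, SEC63, SSR1 and SSR4. Whether probe sets of these genes also read a pseudogene was not tested.

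Within the channel itself, SEC61A1, the pore subunit, was 9.98 in the vector, 10.14 in the wild-type and 10.09 in the Δe13 array, and SEC61B 11.99, 12.26 and 12.20. The other 2 SEC61A1 probe sets differed more than that brightest one, and the median over all 3 gave 0.46 for the wild type and 0.34 for Δe13. SEC62 and SEC63 assist import after translation, and SEC63 recruits HSPA5 to the channel. SEC63 was 10.18, 10.49 and 10.45, higher on 3 of 3 probe sets in both LOXL2 arrays. SEC62 was 10.55, 10.87 and 10.74, higher on 9 of 9 probe sets in both. The SEC62 mean difference was 0.41 ± 0.14 for the wild type and 0.17 ± 0.10 for Δe13 (SD, n = 9 probe sets). Among these probe sets, 11731451_at and 11731453_at reached the floor on the wild-type array alone. The subunits of the translocon-associated protein complex, SSR1 to SSR4, lay closer to the vector. SSR2 was 11.40, 11.30 and 11.31, the lowest with Δe13, and SSR3 10.62, 10.52 and 10.62. The other 3 SSR3 probe sets above the floor were all higher in both LOXL2 arrays, and the median over its probe sets gave 0.21 for each. Only the brightest lay below the vector with the wild type, at -0.09, and with Δe13 it was 0.01 above. SERP1, which stabilises membrane proteins at the channel under stress, differed by 0.21 for the wild type and 0.23 for Δe13. With the median over probe sets its wild-type difference was 0.43.

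The degradation genes held 1 member far from the others. HERPUD1, which organises the membrane complex that moves misfolded proteins out of the ER, was 9.40 in the vector, 10.28 in the wild-type and 10.44 in the Δe13 array. This was 2.05-fold for Δe13, position 4 from the top of all genes, and 1.84-fold for the wild type, position 38. Its 3 probe sets above the floor gave mean differences of 0.97 ± 0.06 and 0.75 ± 0.12 (SD, n = 3 probe sets). Of the rest, none was 1.5-fold apart from the vector in either comparison. DERL2, a channel-like membrane protein, came next at 9.86, 10.38 and 10.22. SEL1L, the scaffold of the SYVN1 ubiquitin ligase, differed by 0.23 for the wild type and 0.28 for Δe13, and SYVN1 itself by -0.05 and 0.12.

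The mannosidase-like EDEM proteins, which mark glycoproteins for degradation, did not differ from the vector in 1 direction. EDEM3 was 9.15, 9.42 and 9.21, EDEM1 10.12, 9.96 and 10.09, and EDEM2 7.88, 7.71 and 7.77 in the vector, wild-type and Δe13 arrays. EDEM3 was thus higher in the wild-type array, and EDEM1 and EDEM2 lower. DERL3 was 6.45, 6.26 and 6.66, on either side of the vector in the LOXL2 arrays. DERL1 and the lectin OS9 lay within 0.07 of the vector in both on their brightest probe sets. With the wild type, probe sets above the floor ran from -0.03 to 0.13 for DERL1 and from -0.01 to 0.26 for OS9. The degradation list as a whole had medians of 0.09 (Δe13) and 0.02 (wild type), and without HERPUD1 its range for Δe13 ended at DERL2 with 0.35.

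The 2 genes of vesicle export, subunits of the COPII coat that carries folded cargo to the Golgi, were not higher as a group. SEC24D was the lowest member of the whole list against the vector in both comparisons, at 7.71 in the vector, 7.50 in the wild-type and 7.56 in the Δe13 array. SEC31A was 9.69, 9.69 and 9.73.

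Taking the 46 genes above the floor as a list, 37 were higher with Δe13 (80.4%, against 48.2% of all genes) and 33 with the wild type (71.7%, against 49.9%). The medians were 0.14 and 0.21, against -0.01 and 0.00 over all genes. At 1.5-fold, 6 were higher with Δe13 (13.04%, against 0.359%) and 7 with the wild type (15.2%, against 2.02%), and 0 were lower in either, against 0.303% and 0.919% of all genes. The 6 were HSPA5, HERPUD1, DNAJB11, HYOU1, SEC11C and DNAJC3, all among the 7 with the wild type, where DNAJB9 was added. HSPA5 and HERPUD1 were at least 2-fold higher with Δe13 (2 of 46, against 0.046% of all genes), and 0 of 46 with the wild type (against 0.193%). That 0 rests on the HSPA5 probe set with the smallest difference. With the median over the probe sets of each gene, the 1.5-fold count was 3 in each comparison (HSPA5, HERPUD1 and DNAJB11). There HSPA5 differed by 1.60 with Δe13 and 1.17 with the wild type, past 2-fold in both, SEC11C by 0.38 and 0.51, and DNAJC3 lay below the floor. Both comparisons share the vector array, so a deviation of that array would enter both. Without the chaperones, 24 of 32 members were higher with Δe13 and 20 of 32 with the wild type, with medians of 0.07 and 0.09.

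**Figure D3:**
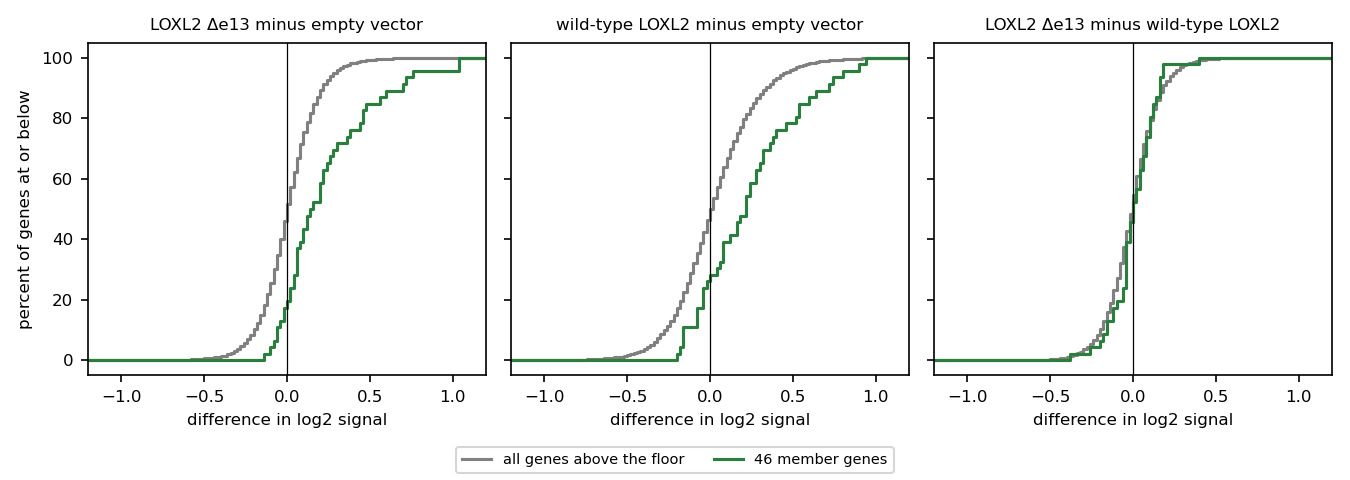
Cumulative percent of genes at or below each log2 difference, for all genes above the floor (grey) and for the 46 member genes (green), in 3 comparisons of 1 array with 1 array. The green curve lies to the right of the grey one in both comparisons with the vector and runs along it for LOXL2 Δe13 minus wild-type LOXL2.

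Members with the ERSE or ERSE-II letters in a promoter window were compared with those that lack them, as a description. All 10 members with either element were higher in both LOXL2 arrays than in the vector, with medians of 0.45 (Δe13) and 0.44 (wild type). The lowest of the 10 were XBP1 at 0.19 with Δe13 and CALR at 0.07 with the wild type. Of the 32 with a window above the floor and neither element, 25 and 22 were higher, with medians of 0.09 and 0.16. Members with neither were not all level, since DNAJB11, SEC11C and DNAJC3 passed 1.5-fold in both comparisons. Most of the 10 (HSPA5, HSP90B1, HYOU1, CALR, CANX, CRELD2 and SDF2L1) were chaperones, the group described above as high. With Δe13 these ran from 0.25 (CALR) to 1.02 (HSPA5), and the chaperones with neither element from -0.01 (SIL1) to 0.75 (DNAJB11). The element and the chaperone group were thus not told apart. When 1 base of the CCACG of the ERSE was allowed to vary, a search added after the first was seen, 12 members held it (27.3%, against 1.28% of all genes). HSP90B1 then held 4 copies, 2 of them exact. All 12 were higher in both LOXL2 arrays, with medians of 0.40 and 0.33. Of the 30 without it, 23 were higher with Δe13 and 20 with the wild type, with medians of 0.09 and 0.16. Among all genes 48.2% and 49.9% were higher. The 12 include the same chaperones as the 10. As with the exact search, the element was already known for controlling genes of this kind.

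The splice form was then set against the wild type. Of the 46 members, 22 were higher in the Δe13 array (47.8%, against 45.2% of all genes), with a median of -0.01, the same as over all genes. At 1.5-fold, 0 were higher and 0 lower, against 0.184% and 0.12% of all genes, and 0 were 2-fold higher, against 0.0184%. On their brightest probe sets, members that were high in both LOXL2 arrays lay close together there. The differences were 0.09 for HSPA5, 0.15 for HERPUD1 and -0.04 for DNAJB11. The other HSPA5 probe sets lay further apart, from 0.31 to 0.45, as did those of HERPUD1 above the floor, at 0.24 and 0.27.

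Some members with several probe sets went 1 way on all of them, though by less than 1.5-fold. Of 30 such members, 10 were higher with Δe13 on every probe set above the floor and 11 lower. Of all 6174 genes with several, 22.8% were higher on every one and 32.4% lower, and probe sets of a gene share 1 RNA. HSPA5 was higher on 6 of 6, with a mean of 0.35 ± 0.14 (SD, n = 6 probe sets). The value of 0.09 on its brightest probe set was the smallest of them. HSP90B1 was higher on 7 of 7, at 0.24 ± 0.14, and HERPUD1 on 3 of 3, at 0.22 ± 0.06. DERL3 was the highest member by gene value, at 0.39 and on 3 of 3 probe sets, with signals of 6.26 and 6.66 near the floor. GC-rich background probe sets, at 5.97 and 6.11 in the wild-type and Δe13 arrays, were also higher with Δe13, by a median of 0.16, and their part in this was not tested. GC-poor background probe sets differed by a median of 0.004.

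In the other direction, ATF6 was the lowest member at -0.39, and its other probe set above the floor gave -0.19. SEC62 was lower with Δe13 on 9 of 9 probe sets, at a mean of -0.23 ± 0.10 (SD, n = 9 probe sets), and EIF2AK3 on 3 of 3, at -0.25 ± 0.06. SEC62 probe sets 11731451_at (-0.34) and 11731453_at (-0.38) and EIF2AK3 probe set 11722150_a_at (-0.18) reached the floor on the wild-type array alone. These counts and means thus draw in part on probe sets kept through a high signal on that array. EDEM3 (-0.21) and DNAJC10 (-0.13) were lower on 3 of 3 and 5 of 5 probe sets. CANX, with 9 probe sets, averaged 0.00 ± 0.05. All these genes differ by less than the 1.5-fold used as the call, and cultures were not replicated.

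**Figure D4:**
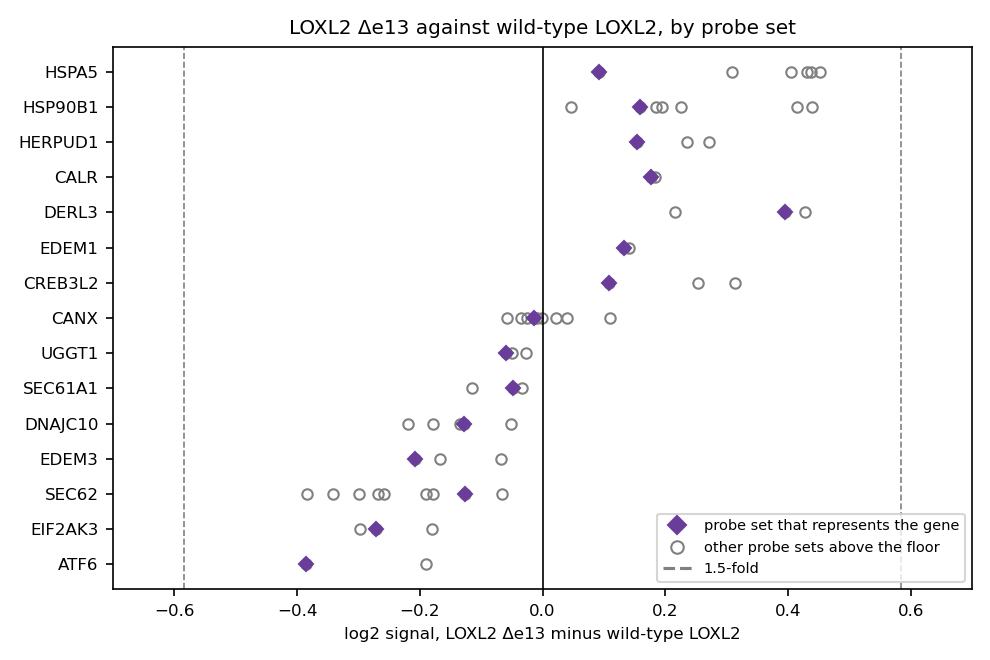
Log2 difference between the LOXL2 Δe13 and wild-type LOXL2 arrays for each probe set above the floor of 15 genes, chosen after their values were seen; diamonds mark the probe set that represents the gene and dashed lines are 1.5-fold. HSPA5, HSP90B1 and HERPUD1 lie to the right of 0 on every probe set, and SEC62, EIF2AK3 and ATF6 to the left. SEC62 11731451_at and 11731453_at and EIF2AK3 11722150_a_at reach the floor in the wild-type array alone.

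Other genes of the same pathway were taken from 7 lists, 77 genes in all, of which 74 were above the floor. Against the vector 49 of them were higher with Δe13 and 48 with the wild type (66.2% and 64.9%, against 48.2% and 49.9% of all genes), with medians of 0.08 and 0.12. At 1.5-fold, 0 of 74 were higher with Δe13 (against 0.359%) and 3 with the wild type (4.05%, against 2.02% of all genes), and 0 were lower in either. The 3 were AUP1 and SELENOS, both of the degradation machinery, and SRPRB, the membrane subunit of the signal recognition particle receptor. AUP1, which recruits a ubiquitin-conjugating enzyme, was 10.41 in the vector, 11.12 in the wild-type and 10.92 in the Δe13 array. SELENOS, a selenoprotein that links DERL proteins to the cytosolic ATPase VCP, was 10.41, 11.05 and 10.91. SRPRB was 9.12, 9.81 and 9.55. In all 3 the Δe13 array lay between the vector and the wild-type array.

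By list, the membrane and cytosolic partners of degradation had medians of 0.09 (Δe13) and 0.22 (wild type), with 13 and 14 of 17 higher. The membrane insertion complex EMC had 0.11 and 0.18, with 7 of 8 higher in both, and EMC6 led it at 0.28 and 0.42 while EMC10 was at -0.23 in both. The signal recognition particle, its receptor and TRAM had 0.07 and 0.09, with SRP9 the lowest at -0.06 and -0.08. N-glycosylation and glucose trimming had 0.08 and 0.04. In that list STT3A, a catalytic subunit of the oligosaccharyltransferase, differed by 0.27 and 0.32, STT3B by 0.19 and 0.37, and the glucosidase MOGS by -0.35 and -0.25.

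For genes further along the secretory pathway the medians lay near 0. The other COPII coat genes had medians of 0.00 and -0.01, between SEC23A at -0.11 and SAR1B at 0.27 for Δe13; SAR1B was at 0.38 for the wild type. KDEL and cargo receptors, which return or carry ER proteins, had 0.00 and -0.05, from KDELR1 at -0.13 in both to TMED2 at 0.23 and 0.30. Sensor processing genes and partners, a separate list, had 0.08 and 0.15. There the site-1 protease MBTPS1, which cuts ATF6, was the lowest at -0.30 and -0.27, and DNAJC1, a J-domain protein of the ER membrane, the highest at 0.48 and 0.53.

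**Figure D5:**
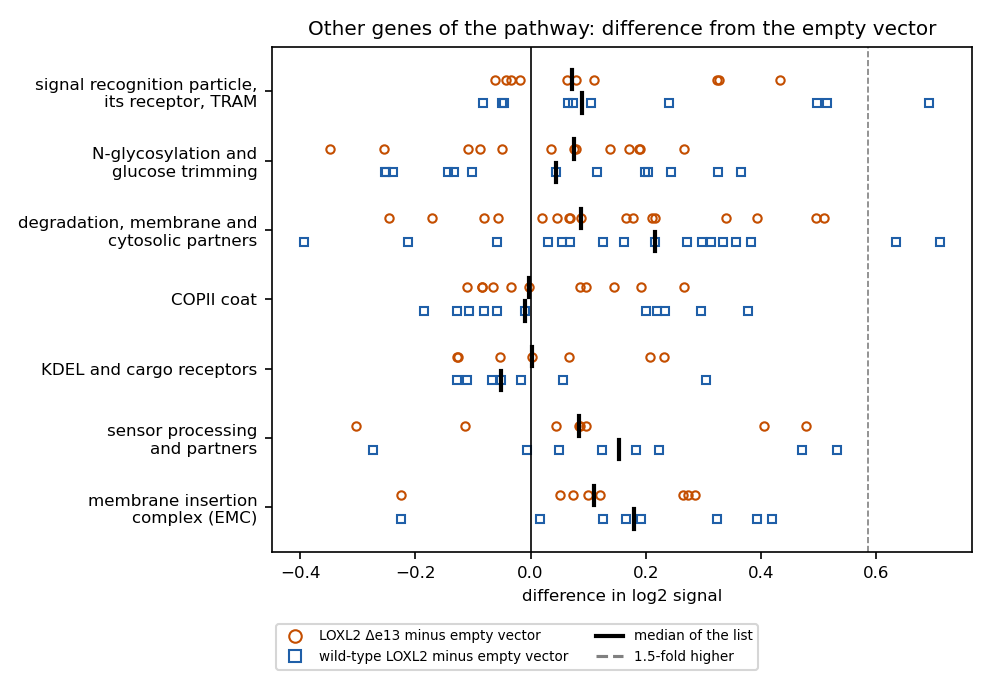
Log2 difference from the empty vector array for the 74 other pathway genes above the floor, in 7 lists, with circles for LOXL2 Δe13, squares for wild-type LOXL2 and a black bar at each list's median; the dashed line is 1.5-fold. Only AUP1, SELENOS and SRPRB pass it, all in the wild-type array.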

How the data were processed

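Biotin-labelled cRNA from total RNA was hybridised to PrimeView arrays, 1 per group, per the labels. The authors' deposited table holds 1 log2 value per probe set, and the submitters' processing notes name RMA, with no version. The scale was taken as log2 because values run from 2.07 to 14.56. RMA brings arrays to like distributions, so a shift of most genes 1 way would not show. Symbols came from GEO's platform annotation, updated through a RefSeq table (GRCh38.p14). Probe sets shared with another gene (2 for members) were left out. For a gene with several, the brightest on average over the 3 arrays was used. A gene was compared between 2 arrays where at least 1 of them reached the floor of 5.94. In counts and means over probe sets, a probe set was kept where any of the 3 arrays reached the floor. Calls are differences of 1.5-fold or more. The rule for named genes took members past 1.5-fold and the highest and lowest of each group; further members were named to show their values, and 15 genes of the plot of Δe13 against wild type were chosen after their values were seen. Other settings were the median over probe sets, no floor or one at the 75th percentile (7.86), quantile normalization, centring, loess (span 0.3) and other fold thresholds. The members, lists and settings were chosen with earlier results of these data known. Python 3.11.15, numpy 2.4.6, pandas 2.3.3, statsmodels 0.14.6 and matplotlib 3.10.9 were used.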

Additional observations from a re-analysis of the deposited data

How the results depend on the processing

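With 1 array per group no replicate could be left out, and no paired analysis was possible because each group has 1 array. The count of members at least 1.5-fold above the vector, 6 with Δe13 and 7 with the wild type, was 3 and 3 with the median over probe sets. There HYOU1 with the wild type turned to -0.035. This median took all probe sets of a gene, also those below the floor, and for HYOU1 it fell on 11752033_x_at, at 6.67 in the vector and 6.63 in the wild-type array. How far probe sets below the floor lowered the count was not tested. The count was 2 and 0 at 2-fold, against 0.046% and 0.193% of all genes. At a threshold of 0.32 log2 units it was 13 and 14, against 3.39% and 10.7% of all genes. For Δe13 minus wild type, 1 of 46 members was higher and 1 lower at that threshold (DERL3 and ATF6), against 0 and 0 at 1.5-fold. Of all genes 2.06% were higher and 2.79% lower by that much, so the members lay near the share of all genes. The wild-type count was 6 with quantile normalization, without HYOU1, and 5 with loess, without HYOU1 and DNAJB9. Leaving out _s_at and _x_at probe sets, or setting the floor on the mean of 3 arrays, both chosen after seeing the data, gave 6 and 6, and 6 and 7. Medians and counts of members higher at all stayed within the spread between probe sets or within 1.5 times under the alternatives tried for them. Of 1057 values of single members under these settings, 98 moved by at least 1 SD between that gene's probe sets (the SD pooled over genes where it has 1). Settings that change only the floor cannot move a gene's value, so the total understates how far single values depend on the processing. With the median over probe sets, 49 values moved, 1 call reversed (HYOU1 with the wild type) and 73 stayed the same. Signals near the floor limit CALR, DERL3, ATF6B and WFS1.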

Other observations

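Probe sets that the annotation gives to a member together with another gene were left out above. On 11753772_s_at, shared by SPCS2 and its pseudogene SPCS2P4, the log2 signal was 9.88 in the vector, 10.29 in the wild-type and 10.11 in the Δe13 array. The differences from the vector, 0.41 and 0.23, lay near those of the probe sets of SPCS2 alone. On 11750605_a_at, shared by ATF6B and TNXB, the signal was 5.35, 4.51 and 4.97, below the floor on all 3 arrays, with differences of -0.85 and -0.39.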
